A study of Mus musculus with 4 samples.

Results

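The nuclear genes of respiratory complexes II to V were described in 4 mouse RNA-seq libraries. The material came from tumours grown from B16, a melanoma line that makes pigment. The genes were taken by symbol: protein-coding genes outside the mitochondrial chromosome that are named Sdha to Sdhd, Cycs, or with the stem Uqcr, Atp5, or Cox followed by a digit from 4 to 8. This gave 49 of the 54532 genes in the deposited table, made up of 4 genes of complex II, 8 of complex III, 18 of complex IV, 18 of complex V and Cycs, the gene of cytochrome c. Of the 49 genes, 42 had a mean of at least 1 FPKM (fragment count divided by gene length and by a library size) over the 4 libraries and were tested. The symbols also take Cox7a2l and Atp5s, which encode proteins related to complexes IV and V rather than core subunits, and they leave out Cyc1, a complex III subunit.

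The study asked how Piezo1, a mechanically gated cation channel, acts in the differentiation of T helper cells that make interleukin 9. 2 libraries are labelled Piezo1KO and 2 WT, and all 4 are labelled as CD4+ T cells that had infiltrated B16 tumours and were sorted by flow cytometry. The labels name no strain, age, Cre driver or deleted exon. Nor do they tell whether 2 libraries of the same genotype are from 2 mice. A limma p-value thus reflects the variation among these 4 libraries alone, and that variation may be technical.

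Complex II (succinate dehydrogenase) takes electrons from succinate, an intermediate of the TCA cycle, and passes them to ubiquinone. Complex III hands them to cytochrome c, complex IV passes them from cytochrome c to oxygen, and complex V (ATP synthase) makes ATP with the proton gradient that complexes III and IV help to build. Complex II is encoded by nuclear genes alone, whereas complexes III, IV and V join nuclear subunits to subunits encoded in the mitochondrial genome. Respiratory subunits are made in nearly every cell type, so their RNA in a bulk library does not tell which cells it came from, and fewer cells of a type and less RNA per cell cannot be told apart.

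Many promoters of respiratory genes hold sites for nuclear respiratory factor 1 (NRF1), and the sequences shown here are the matches to its pattern in the members' promoters. RefSeq promoters (GRCm38.p6) were found by symbol for 32 of the 42 tested genes, and not for Sdhc, Uqcrq, Uqcrb, Uqcrc2, Cox4i1, Cox6c, Atp5mpl, Atp5f1, Atp5a1 and Atp5s. The 250 bases upstream of each start were searched on both strands. The pattern of GCGC, any base and TGCGC, which is close to its own reverse complement, matched in 7 of the 32 genes. Each stretch below is written 5′ to 3′ on the gene's strand, with the match in capitals and 10 bases on either side in lower case. The last Sdha stretch thus runs 10 bases past the RefSeq start, and the end of the Atp5c1 stretch also passes its start. By the deposited gene coordinates, which can begin farther upstream than RefSeq, the Atp5c1, Atp5g2 and last Sdha stretches lie inside the gene. The Atp5k and middle Sdha stretches lie partly inside it. A match describes letters and is not a measured site.
Atp5k, chr5:108434430-108434459, minus strand: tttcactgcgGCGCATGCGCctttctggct
Atp5h, chr11:115420041-115420070, minus strand: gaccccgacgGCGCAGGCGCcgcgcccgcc
Atp5g2, chr15:102671070-102671099, minus strand: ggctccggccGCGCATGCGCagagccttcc
Cox6a1, chr5:115349101-115349130, minus strand: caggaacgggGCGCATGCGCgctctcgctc
Cox6a1, chr5:115349056-115349085, minus strand: cggataaagtGCGCAGGCGCtggagttcct
Atp5c1, chr2:10080430-10080459, minus strand: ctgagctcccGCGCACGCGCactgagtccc
Sdhd, chr9:50603909-50603938, minus strand: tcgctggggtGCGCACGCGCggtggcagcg
Sdha, chr13:74350319-74350348, minus strand: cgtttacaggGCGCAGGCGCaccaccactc
Sdha, chr13:74350276-74350305, minus strand: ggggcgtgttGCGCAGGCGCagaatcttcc
Sdha, chr13:74350231-74350260, minus strand: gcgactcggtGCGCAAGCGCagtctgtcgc
The 7 genes are 21.9% of the 32, beside 4.23% of the 27025 genes with a RefSeq promoter and 10.4% of the 7914 other tested protein-coding genes with one. Atp5k and Sdha, which have the highest and one of the lowest fold changes of the 42 genes, both hold a match. The log2 fold changes of the 7 genes with a match spanned 0.12 to 2.11 (median 0.81), and those of the 25 without spanned 0.33 to 1.43 (median 0.92). The ETS pattern CCGGAAGT was in Atp5h, Uqcr11 and Uqcrh (9.38% of the 32, 7.57% of the other tested genes). The YY1 pattern of AA, any base and ATGGCGG was in Atp5j (3.13% against 1.52%), and the TATA pattern TATAAA in Atp5l (3.13% against 7.29%).

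The libraries differed in composition, and Piezo1KO 2 stood apart. Assigned reads numbered 15331499 and 13789266 in Piezo1KO 1 and Piezo1KO 2, and 15645069 and 15892797 in WT 1 and WT 2. Mitochondrial genes took 20.1% and 48.3% of them in Piezo1KO 1 and Piezo1KO 2, against 3.86% and 2.99% in WT 1 and WT 2. Piezo1, the targeted gene, had 18.7 and 7.64 FPKM in Piezo1KO 1 and Piezo1KO 2, against 27.8 and 27.6 FPKM in WT 1 and WT 2 (limma adjusted p = 0.166 at -1.14 on the log2 scale). The 9 T cell markers summed to 12.4 and 6.65 FPKM in Piezo1KO and 1.48 and 1.43 FPKM in WT, and Cd3e had 27 and 0 reads in Piezo1KO and 1 and 2 reads in WT. The 7 melanocyte markers summed to 6359 and 6391 FPKM in Piezo1KO and 5700 and 5750 FPKM in WT, against the label of a T cell sort.

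In the FPKM values as deposited, the nuclear respiratory genes stood higher in the Piezo1KO than in the WT libraries, but none of the 42 tested genes passed the test over all genes, and 19 of them lay below 0 once the libraries were rescaled to all assigned reads. The median log2 fold change (Piezo1KO minus WT, on the log2(FPKM + 1) scale, which understates changes of low genes) was 0.87 for the 42 genes and -0.03 for all tested protein-coding genes. All 42 fold changes were above 0, the lowest being 0.01 for Atp5s and the highest 2.11 for Atp5k. In limma, 0 of the 42 passed at an adjusted p under 0.05, beside 0.731% of the 11085 tested genes that passed as higher and 0.370% that passed as lower. At an unadjusted p under 0.05, 15 of the 42 were higher, beside 14.9% of all tested genes, and limma voom on reads recovered from the FPKM also called 0 (0.650% of all tested genes passed there as higher). The smallest adjusted p was 0.132, for Atp5d and Atp5g1. For 40 of the 42 genes both Piezo1KO values lay above both WT values, beside 33.9% of all tested genes. Cox7b and Atp5s were the genes whose groups overlapped.

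The Piezo1KO libraries differed from each other far more than the WT libraries did. The median within-group SD of the 42 genes on the log2 scale was 0.632 in Piezo1KO and 0.0436 in WT, where all tested genes had 0.206 in Piezo1KO and 0.0749 in WT. FPKM was higher in Piezo1KO 2 than in Piezo1KO 1 for 39 of the 42 genes, by up to 5.09 times for Atp5k, and lower for Uqcrc2, Atp5b and Atp5a1, where 5265 of the 11085 tested genes were higher in Piezo1KO 2. These counts depend on the scaling. In recovered reads, uncorrected for depth, Piezo1KO 2 had more than Piezo1KO 1 for 16 of the 42 and fewer for 26. Piezo1KO 2 also had fewer assigned reads in all. As shares of all assigned reads, complexes III (0.127% in Piezo1KO 1, 0.134% in Piezo1KO 2) and IV (0.191%, 0.219%) were higher in Piezo1KO 2. Complexes II (0.0895%, 0.0620%) and V (0.529%, 0.406%) were lower there. Of reads outside mitochondrial genes, the 49 genes took 1.21% in Piezo1KO 1 and 1.64% in Piezo1KO 2. With Piezo1KO 1 as the single Piezo1KO library, 16 of the 42 genes passed as higher in limma (38.1%, beside 9.71% of all tested genes), and the median was 0.40. With Piezo1KO 2 alone, 37 of the 42 passed (88.1%, beside 27.5%), and the median was 1.28. These fits assume that the lone library varies as the WT libraries do. The 16 genes were among the 37, and came from complex III (Uqcr10, Uqcr11, Uqcrh, Uqcrq, Uqcrc1), complex IV (Cox4i1, Cox5b, Cox6a1, Cox6b1, Cox7a2l) and complex V (Atp5d, Atp5e, Atp5g1, Atp5g2, Atp5j2, Atp5k). No gene of complex II was among the 16.

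**Figure D1:**
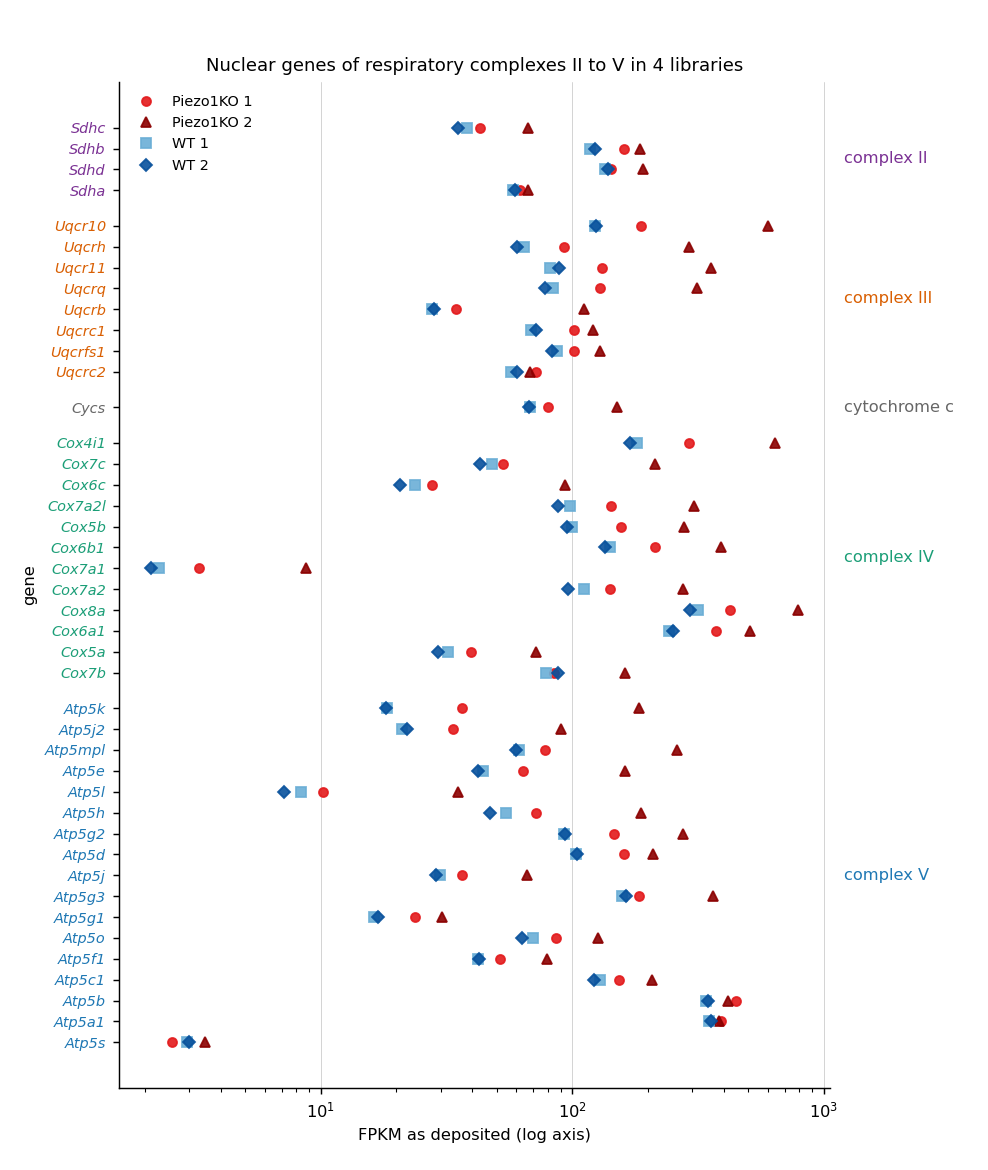
FPKM as deposited (horizontal log axis) of the 42 tested nuclear genes of complexes II to V in each library, grouped by complex and ordered within a complex by log2 fold change; each symbol is 1 library. The WT symbols nearly coincide, and Piezo1KO 2 lies farthest right for 39 of the 42 genes.

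In the FPKM as deposited, the complexes were ordered alike in both Piezo1KO libraries, with complex III farthest above WT and complex II nearest to it. Set against the WT mean, the median gene of complex III stood at 0.55 and 1.95 on the log2 scale in Piezo1KO 1 and Piezo1KO 2. That of complex IV stood at 0.46 and 1.496, that of complex V at 0.37 and 1.14, and that of complex II at 0.15 and 0.55. The 2 WT libraries lay within 0.05 of their own mean for every complex. Complex III exceeded complex II by 0.40 in Piezo1KO 1 and by 1.40 in Piezo1KO 2, complex IV exceeded complex II by 0.31 and 0.95, and complex V exceeded complex II by 0.22 and 0.59. Between complexes III and IV the gap was smaller, 0.08 in Piezo1KO 1 and 0.45 in Piezo1KO 2, where the WT libraries differed by -0.06 and 0.06. Genes of a complex are not replicates and 2 libraries against 2 cannot give an exact permutation p below 0.333, so these differences carry no test. Complex II had the lowest median and complex III the highest under the values as deposited and all 14 alternatives computed, of which protein-coding genes alone and the replicate block leave every fold change as it is and the library scalings shift all genes nearly alike. Complexes IV and V changed places in 2 of the 15 settings, those with a gene length or a coding length trend removed. The order is one of rank and not of distance from WT. Rescaled to all assigned reads, complex V (-0.07) lay nearest to 0, and complexes II (-0.41) and III (0.41) were about equally far from it.

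**Figure D2:**
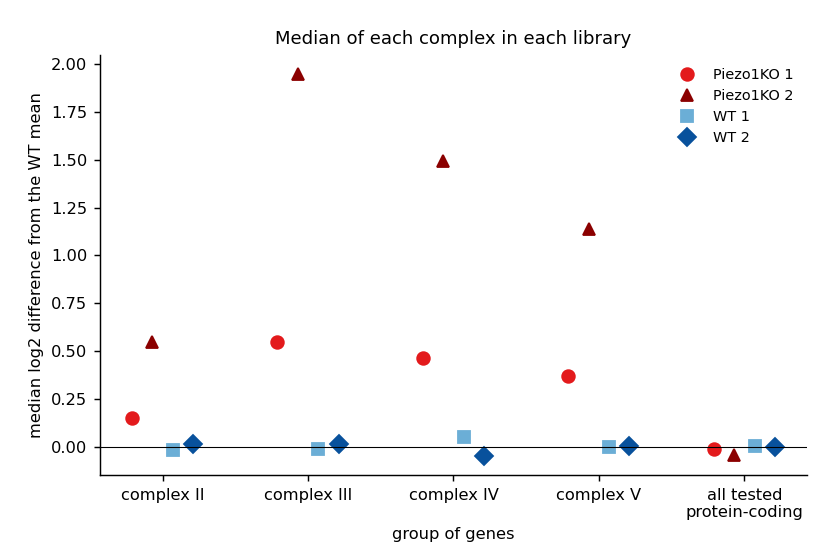
Median over the tested genes of each complex of the log2(FPKM + 1) difference from the WT mean (vertical axis) in each library, with the median of all tested protein-coding genes at the right. Complex III stands highest in both Piezo1KO libraries (0.55 and 1.95) and complex II lowest (0.15 and 0.55), while all protein-coding genes stay at -0.01 and -0.05; rescaled to all assigned reads, the medians of complexes II and V lie below 0.

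Complex II was measured by all of its genes. Sdha (ENSMUSG00000021577, chr13:74322254-74350280, GRCm38), the flavoprotein that oxidises succinate, had 61.7 and 66.4 FPKM in Piezo1KO 1 and Piezo1KO 2, against 58.3 and 59.4 FPKM in WT 1 and WT 2. Sdhb, the iron-sulphur subunit, had 161 and 186 FPKM in Piezo1KO 1 and Piezo1KO 2, against 118 and 123 FPKM in WT 1 and WT 2. Both genes were higher in each Piezo1KO library than in each WT library, Sdha by the smaller margin, with log2 fold changes of 0.12 ± 0.15 and 0.52 ± 0.18 (standard error). The membrane anchors Sdhc and Sdhd hold the haem group and help to form the ubiquinone site. Sdhc had 43.1 and 66.4 FPKM in Piezo1KO 1 and Piezo1KO 2, against 38.3 and 35.0 FPKM in WT 1 and WT 2. Sdhd had 143 and 191 FPKM in Piezo1KO 1 and Piezo1KO 2, against 135 and 139 FPKM in WT 1 and WT 2. Both anchors lay above WT in each Piezo1KO library, Sdhd only just so in Piezo1KO 1. None of the complex II genes passed, with limma adjusted p from 0.162 for Sdhb to 0.584 for Sdha, and rescaled to all assigned reads all 4 had fold changes below 0 (-0.26 for Sdhc to -0.68 for Sdha). The ratio of Sdhb to Sdha FPKM within a library, which no scaling of the library can alter, was 2.61 and 2.80 in Piezo1KO and 2.02 and 2.07 in WT. That of Sdhd to Sdha was 2.32 and 2.87 in Piezo1KO and 2.32 and 2.34 in WT, so that Piezo1KO 1 did not stand apart from WT. Sdha had the lowest fold change of the complex, so a higher mean of such ratios in Piezo1KO follows from the choice of Sdha.

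In complex III the small subunits and the larger subunits stood apart. The median log2 fold change of the 5 small subunits was 1.34, against 0.43 for the 3 others. Uqcr10 (ENSMUSG00000059534, chr11:4701973-4704342), a small subunit of the membrane part, had 188 and 599.5 FPKM in Piezo1KO 1 and Piezo1KO 2, against 123 and 125 FPKM in WT 1 and WT 2. Uqcrh (ENSMUSG00000063882, chr4:116066965-116075071), the acidic hinge protein at the cytochrome c docking site, had 92.4 and 292 FPKM in Piezo1KO 1 and Piezo1KO 2, against 64.2 and 60.5 FPKM in WT 1 and WT 2. Uqcr11, another small membrane subunit, had 132 and 355 FPKM in Piezo1KO 1 and Piezo1KO 2, against 81.5 and 88.6 FPKM in WT 1 and WT 2. For all 3 genes Piezo1KO 2 held the highest value and Piezo1KO 1 an intermediate one, and the log2 fold changes were 1.43 ± 0.58, 1.38 ± 0.57 and 1.34 ± 0.50 (standard error). The small subunits Uqcrq and Uqcrb had 1.31 and 1.12.

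Of the larger subunits, Uqcrc1 and Uqcrc2 are the core proteins on the matrix side, and Uqcrfs1 is the Rieske iron-sulphur protein, which takes electrons from ubiquinol. Uqcrc2 had 71.8 and 67.8 FPKM in Piezo1KO 1 and Piezo1KO 2, against 56.8 and 60.0 FPKM in WT 1 and WT 2. Uqcrfs1 had 102 and 129 FPKM in Piezo1KO 1 and Piezo1KO 2, against 86.5 and 83.2 FPKM in WT 1 and WT 2. Uqcrc1 had 102 and 121 FPKM in Piezo1KO 1 and Piezo1KO 2, against 68.5 and 71.5 FPKM in WT 1 and WT 2. The groups did not overlap for any of these genes, and Piezo1KO 1 lay above Piezo1KO 2 for Uqcrc2. Log2 fold changes were 0.25 ± 0.15 for Uqcrc2, 0.43 ± 0.19 for Uqcrfs1 and 0.66 ± 0.17 for Uqcrc1, with limma adjusted p of 0.296, 0.211 and 0.135, and all 3 were below 0 when rescaled to all assigned reads. Within a library, the FPKM ratio of Uqcrh to Uqcrc2 was 1.29 and 4.31 in Piezo1KO and 1.13 and 1.01 in WT, and that of Uqcr10 to Uqcrfs1 was 1.84 and 4.63 in Piezo1KO and 1.42 and 1.498 in WT. Both ratios were therefore highest in Piezo1KO 2 and only a little above WT in Piezo1KO 1. These pairs set the highest fold changes of the complex over the lowest, so a higher ratio in Piezo1KO follows from the choice of genes. Cyc1, the haem-bearing cytochrome c1 that the symbols do not take, had 183 and 186 FPKM in Piezo1KO 1 and Piezo1KO 2, against 156 and 159.7 FPKM in WT 1 and WT 2 and was close to the larger subunits at 0.22 on the log2 scale (limma adjusted p = 0.406).

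Cytochrome c, the soluble carrier between complexes III and IV, is encoded by Cycs (ENSMUSG00000063694, chr6:50562563-50566538). It had 80.1 and 150.2 FPKM in Piezo1KO 1 and Piezo1KO 2, against 67.6 and 67.1 FPKM in WT 1 and WT 2. Both Piezo1KO values were above both WT values, and the log2 fold change of 0.70 ± 0.33 (standard error) did not pass (limma adjusted p = 0.230) and was -0.11 when rescaled to all assigned reads.

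Among the 12 tested genes of complex IV the log2 fold changes spanned 0.49 to 1.29, a narrower range than in complex V. Cox4i1 (ENSMUSG00000031818, chr8:120668222-120674207), the common isoform of subunit 4, had 290.2 and 642 FPKM in Piezo1KO 1 and Piezo1KO 2, against 181 and 170.3 FPKM in WT 1 and WT 2. Cox7c, a small membrane subunit, had 53.0 and 212 FPKM in Piezo1KO 1 and Piezo1KO 2, against 47.8 and 42.8 FPKM in WT 1 and WT 2. Cox6c, likewise a small membrane subunit, had 27.6 and 93.7 FPKM in Piezo1KO 1 and Piezo1KO 2, against 23.8 and 20.6 FPKM in WT 1 and WT 2. These genes had the highest fold changes of the complex (1.29 ± 0.43, 1.22 ± 0.67 and 1.17 ± 0.59, standard error), and for Cox7c and Cox6c the distance from WT was mostly that of Piezo1KO 2.

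At the low end of complex IV, Cox7b had 84.4 and 162 FPKM in Piezo1KO 1 and Piezo1KO 2, against 78.7 and 87.5 FPKM in WT 1 and WT 2. Piezo1KO 1 thus lay between the WT libraries for Cox7b. Cox5a, a matrix-side subunit, had 39.6 and 71.8 FPKM in Piezo1KO 1 and Piezo1KO 2, against 32.2 and 29.1 FPKM in WT 1 and WT 2. Cox6a1 had 372 and 507 FPKM in Piezo1KO 1 and Piezo1KO 2, against 241 and 252 FPKM in WT 1 and WT 2. For Cox5a and Cox6a1 the groups did not overlap, and the fold changes of the 3 genes were 0.49 ± 0.35, 0.78 ± 0.31 and 0.81 ± 0.25 (standard error). The matrix-side subunit Cox5b had 1.09, with the smallest limma adjusted p of the complex (0.142). Set against Sdha within the library, Cox4i1 FPKM was 4.70 and 9.66 times as high in Piezo1KO and 3.10 and 2.87 times in WT. The Cox7c ratio was 0.859 and 3.20 in Piezo1KO and 0.819 and 0.721 in WT. Cox4i1 and Cox7c had the highest fold changes of complex IV and Sdha the lowest of complex II. Higher ratios in Piezo1KO thus follow from the choice of genes.

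Several complex IV subunits have a common isoform and isoforms restricted to a few tissues, and in these libraries the common isoforms carried nearly all the RNA. Cox6b1, the common isoform of subunit 6B, had 214 and 390.5 FPKM in Piezo1KO 1 and Piezo1KO 2, against 141 and 135 FPKM in WT 1 and WT 2. Its testis isoform Cox6b2 had 3 and 0 reads in Piezo1KO 1 and Piezo1KO 2, against 0 and 0 in WT 1 and WT 2. Cox6a2, the heart and skeletal muscle isoform of subunit 6A, had 12 and 0 reads in Piezo1KO 1 and Piezo1KO 2, against 8 and 1 in WT 1 and WT 2. These counts were near 0 in every library, while Cox6a1 had at least 2670 reads in each. Cox4i2, the lung isoform of subunit 4, had 5 and 4 reads in Piezo1KO 1 and Piezo1KO 2, against 1 and 6 in WT 1 and WT 2.

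Of subunit 7A, the common isoform Cox7a2 had 142 and 276 FPKM in Piezo1KO 1 and Piezo1KO 2, against 111 and 96.0 FPKM in WT 1 and WT 2. The muscle isoform Cox7a1 had 3.30 and 8.73 FPKM in Piezo1KO 1 and Piezo1KO 2, against 2.28 and 2.11 FPKM in WT 1 and WT 2. Cox7a1 was the 1 restricted isoform that reached the test, at 26 and 35 reads in Piezo1KO and 24 and 23 reads in WT, and had 1.02 on the log2 scale (limma adjusted p = 0.187). The 6 skeletal muscle markers summed to 0.640 and 0 FPKM in Piezo1KO and 0.0905 and 0.202 FPKM in WT, with Myh1 at 0 reads in all 4 libraries. Cox7a2l, a factor of the supercomplexes that join complexes III and IV, had 143 and 306 FPKM in Piezo1KO 1 and Piezo1KO 2, against 98.3 and 87.8 FPKM in WT 1 and WT 2. Of subunit 8, the common isoform Cox8a had 424 and 786 FPKM in Piezo1KO 1 and Piezo1KO 2, against 317 and 294 FPKM in WT 1 and WT 2, the highest FPKM of complex IV in all 4 libraries. Its fold change was 0.92 ± 0.37 (standard error). Cox8b, the muscle isoform, had 2 and 4 reads in Piezo1KO 1 and Piezo1KO 2, against 0 and 0 in WT 1 and WT 2. No read was assigned to Cox8c or Cox7b2, which are testis isoforms, in any library, where a count of 0 allows up to 3 reads.

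In the FPKM as deposited, complex V spanned the widest range, with Atp5s and the catalytic head nearest to WT and the small membrane subunits farthest from it. Distance from WT depended on the scaling. Rescaled to all assigned reads, Atp5a1 (-0.68) and Atp5s (-0.59) lay farther from 0 than Atp5j2 (0.53), Atp5l (0.44) and Atp5mpl (0.41), but not than Atp5k (1.32). Atp5a1 and Atp5b encode the alpha and beta subunits of the head, where ATP is made, and had the highest FPKM of all members in WT. Atp5a1 had 389 and 383 FPKM in Piezo1KO 1 and Piezo1KO 2, against 348 and 356 FPKM in WT 1 and WT 2. Atp5b (ENSMUSG00000025393, chr10:128083273-128090391) had 449 and 418 FPKM in Piezo1KO 1 and Piezo1KO 2, against 340.3 and 348 FPKM in WT 1 and WT 2. The Piezo1KO values were above WT for both genes and Piezo1KO 2 was the lower of the Piezo1KO libraries, with log2 fold changes of 0.13 ± 0.21 and 0.33 ± 0.21 (standard error), which were -0.68 and -0.48 when rescaled to all assigned reads. The ratio of Atp5b to Atp5a1 FPKM was 1.16 and 1.09 in Piezo1KO and 0.978 in both WT libraries.

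The central stalk turns inside the head, and its genes had fold changes of 0.50 for Atp5c1 (gamma), 0.81 for Atp5d (delta) and 1.21 for Atp5e (epsilon), the shortest coding sequence of the 3. Atp5d had 161 and 209.8 FPKM in Piezo1KO 1 and Piezo1KO 2, against 104 and 105 FPKM in WT 1 and WT 2. The groups did not overlap, and with Atp5g1 it had the smallest adjusted p of the 42 genes.

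The membrane subunits e, f, g and 6.8PL sit around the rotor ring and help ATP synthase to form dimers. Atp5k (ENSMUSG00000050856, chr5:108433244-108434448), subunit e, had 36.3 and 185 FPKM in Piezo1KO 1 and Piezo1KO 2, against 18.4 and 18.2 FPKM in WT 1 and WT 2. Atp5j2, subunit f, had 33.5 and 90.3 FPKM in Piezo1KO 1 and Piezo1KO 2, against 21.0 and 21.9 FPKM in WT 1 and WT 2. Atp5mpl, the 6.8 kDa proteolipid, had 77.8 and 259.6 FPKM in Piezo1KO 1 and Piezo1KO 2, against 61.7 and 59.9 FPKM in WT 1 and WT 2. Piezo1KO 2 was far above the other libraries for all 3 genes, and Piezo1KO 1 was above both WT libraries. Atp5k had the highest fold change of all members, 2.11 ± 0.78 (standard error, limma adjusted p = 0.169). Its ratio to Atp5a1 within the library was 0.0934 and 0.483 in Piezo1KO and 0.0527 and 0.0512 in WT. Atp5a1 had the lowest fold change of the structural subunits of complex V, so the direction of this ratio follows from the choice of genes. Atp5j2, Atp5mpl and Atp5l (subunit g) had 1.32, 1.21 and 1.20.

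The peripheral stalk, which keeps the head from turning with the rotor, had intermediate values: 1.18 for Atp5h (subunit d), 0.72 for Atp5j (F6), 0.65 for Atp5o (OSCP) and 0.58 for Atp5f1 (subunit b). The table holds a second row named Atp5o (ENSMUSG00000116933), which overlaps the first on chromosome 16 and had 0 reads in all 4 libraries. Atp5s, known as factor B and not a structural subunit, was the complex V gene that differed least in the FPKM as deposited, though it had -0.59 when rescaled to all assigned reads. Its values were 2.56 and 3.47 FPKM in Piezo1KO 1 and Piezo1KO 2, against 2.93 and 2.99 FPKM in WT 1 and WT 2, so that both WT libraries lay between the Piezo1KO libraries.

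The rotor ring is built of subunit c, which 3 genes encode with different import sequences and the same mature protein. Atp5g1 had 23.6 and 30.5 FPKM in Piezo1KO 1 and Piezo1KO 2, against 16.3 and 16.9 FPKM in WT 1 and WT 2. Atp5g2 had 147 and 275 FPKM in Piezo1KO 1 and Piezo1KO 2, against 92.9 and 93.3 FPKM in WT 1 and WT 2. Atp5g3 had 184 and 362 FPKM in Piezo1KO 1 and Piezo1KO 2, against 158 and 163 FPKM in WT 1 and WT 2. All 3 copies were higher in each Piezo1KO library than in WT, and their order of level was the same in all 4 libraries, while rescaling to all assigned reads put Atp5g1 and Atp5g3 below 0 (-0.11 and -0.13). Atp5g3 gave 52.0% and 54.2% of the summed FPKM in Piezo1KO and 59.2% and 59.7% in WT. Atp5g2 gave 41.4% and 41.2% in Piezo1KO and 34.8% and 34.1% in WT, and Atp5g1 the rest. The shares of Atp5g2 and Atp5g3 thus did not overlap between the groups, and the 2 Piezo1KO libraries were close to each other in them. That of Atp5g1 overlapped, at 6.66% and 4.56% in Piezo1KO and 6.08% and 6.20% in WT. Shares within a library depend on each other and are not separate observations. With 2 libraries against 2 the exact permutation p cannot fall below 0.333, so the separation carries no test. Reads shared between near-identical copies or processed pseudogenes may be split in ways the sources used here do not describe.

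The fold changes of the members were smaller in genes with longer coding sequences. Across the 42 genes, Spearman's rho between log2 fold change and coding length (GENCODE vM21) was -0.75, and across 9922 tested protein-coding genes it was -0.60, as descriptions over genes that share the same 4 libraries. Within complex V (17 genes) rho was -0.87, within complex III (8 genes) -0.81, and within complex IV (12 genes) -0.02. The complex IV genes spanned 189 to 507 coding bases, against 156 to 1659 in complex V and 168 to 1440 in complex III. Their rho thus rests on a narrower range of lengths and is not like the others. The 15 members with under 300 coding bases had a median of 1.21, against 0.75 for 220 other genes of that length. Between 300 and 600 bases the medians were 0.81 (16 members) and 0.49 (1150 others), between 600 and 1200 bases 0.51 (6 members) and 0.16 (2924 others), and from 1200 bases 0.25 (5 members) and -0.21 (5586 others). Members thus had the higher median in every length class, classes that were chosen after the values were seen and carry no test. With the coding length trend removed in each library, the member median was 0.32 and 0 members passed (0.837% of the 9922 genes passed as higher). The complex medians were then 0.51 for complex III, 0.36 for complex V, 0.29 for complex IV and 0.20 for complex II. The part of transcript length in the difference between the complexes was not tested beyond this adjustment.

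**Figure D3:**
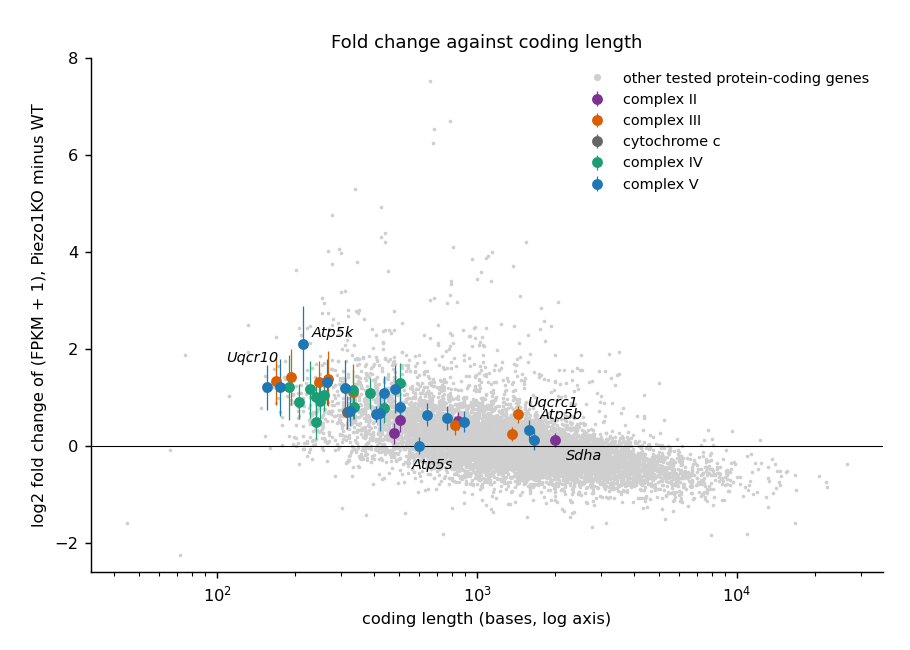
Log2 fold change of (FPKM + 1), Piezo1KO minus WT (vertical axis), against coding length in bases (horizontal log axis) for the 42 tested members, coloured by complex, with bars of 1 standard error, over the other tested protein-coding genes in grey. The short genes of complexes III, IV and V lie at the upper left (median 1.21 under 300 bases), and the long ones, such as Sdha at 0.12 and Atp5b at 0.33, lie nearer to 0.

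The direction of the members also depended on how the libraries were scaled. The library size implied by the deposited FPKM was 0.962 and 0.544 times the assigned reads in Piezo1KO 1 and Piezo1KO 2, against 1.26 and 1.28 times in WT 1 and WT 2. With FPKM rescaled to all assigned reads, the median of all tested genes moved to -0.67 and that of the members to 0.06, with 23 members above 0 and 19 below. Complex III then stood at 0.41, complex IV at 0.27, complex V at -0.07 and complex II at -0.41. The 5 small subunits of complex III were above 0 and the 3 larger ones below it, 10 of 12 complex IV genes and 8 of 17 complex V genes were above 0, and none of the complex II genes was. Atp5k passed at 1.32 (limma adjusted p = 0.0234), as 1 of 42 members, beside 2.50% of all tested genes that passed as higher and 12.9% as lower. That fit also gave mt-Co2 a limma adjusted p of 2.11e-53 from 4 libraries. Such a value cannot come from 2 residual degrees of freedom alone, so its calls are not comparable with those of the main fit. With reads of mitochondrial genes left out of the total, the median of all genes was -0.20 and that of the members 0.64, and Sdha, Atp5a1 and Atp5s were below 0.

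Shares of the reads do not depend on the scaling of the FPKM. The 49 genes took 0.963% and 0.849% of all assigned reads in Piezo1KO 1 and Piezo1KO 2, against 0.969% and 0.980% in WT 1 and WT 2. Of the reads outside mitochondrial genes they took 1.21% and 1.64% in Piezo1KO, against 1.01% in both WT libraries. Complex III had 0.159% and 0.259% of these reads in Piezo1KO (exact 95% intervals 0.156 to 0.161% and 0.255 to 0.263%, counting error only), against 0.122% and 0.123% in WT. Complex II had 0.112% and 0.120% in Piezo1KO (0.110 to 0.114% and 0.117 to 0.123%), against 0.104% and 0.106% in WT. Of these reads both complexes had more in each Piezo1KO library than in WT, complex III by the wider gap. Of all assigned reads, complex III had 0.127% and 0.134% in Piezo1KO against 0.117% and 0.120% in WT, and complex IV 0.191% and 0.219% in Piezo1KO against 0.177% and 0.170% in WT. On that denominator complex II had 0.0895% and 0.0620% in Piezo1KO against 0.1003% and 0.1031% in WT, and complex V 0.529% and 0.406% in Piezo1KO against 0.547% and 0.558% in WT. Complexes II and V were thus below WT, and complexes III and IV above it, as shares of all assigned reads.

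**Figure D4:**
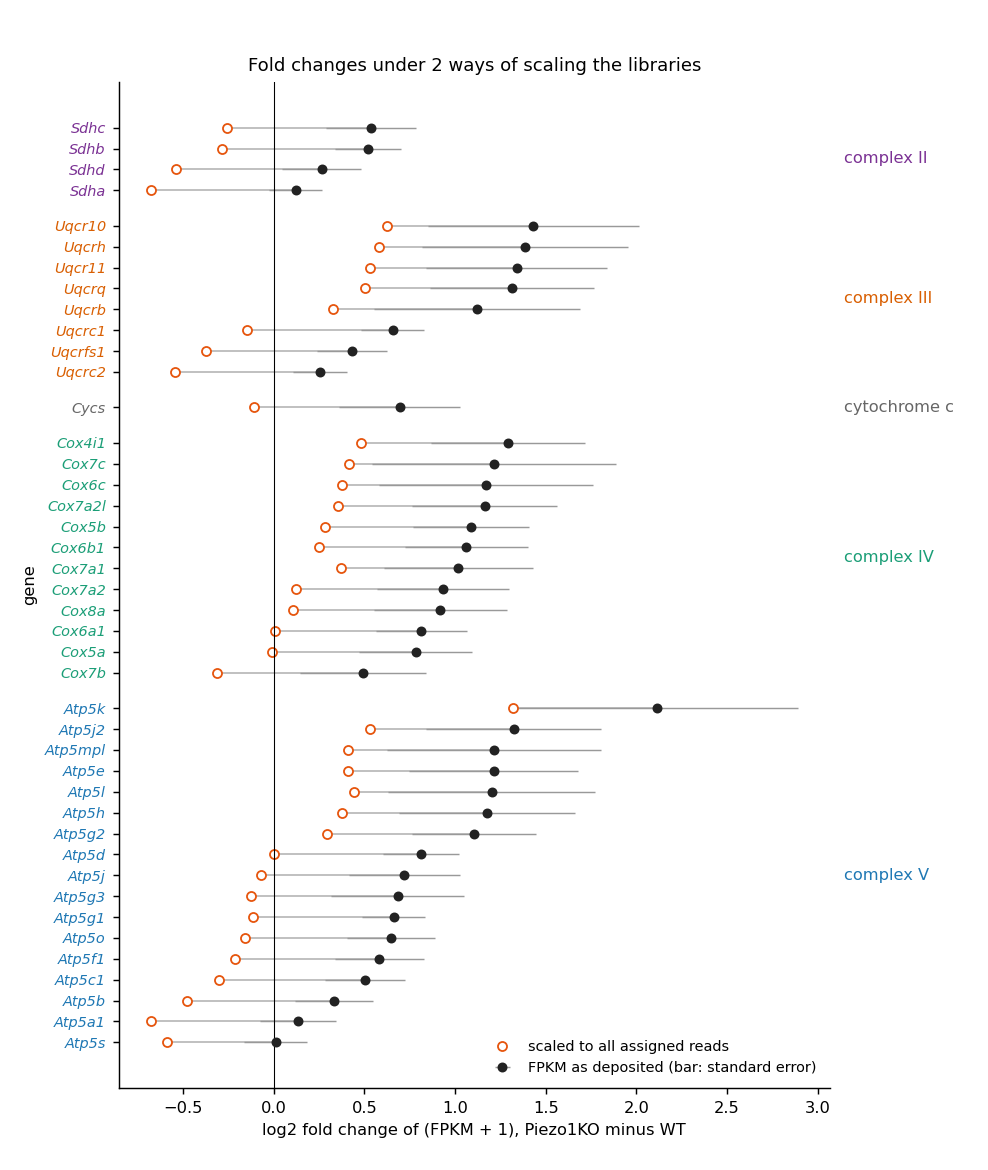
Log2 fold change (horizontal axis, Piezo1KO minus WT) of each tested member with FPKM as deposited (black, bars of 1 standard error) and with FPKM rescaled to all assigned reads (open orange), joined by a grey line. Rescaling moves every gene to the left, and 19 of the 42, among them all of complex II, then lie below 0.

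The mitochondrially encoded partners of complexes III to V had far larger differences than the nuclear subunits. mt-Co2, mt-Co3, mt-Atp6 and mt-Atp8, subunits of complexes IV and V, rose by 6.54, 6.72, 6.26 and 3.64 on the log2 scale (limma adjusted p of 0.0438, 0.0164, 0.0381 and 0.0391). mt-Co1, the catalytic subunit of complex IV, had 64285 and 270326 FPKM in Piezo1KO 1 and Piezo1KO 2, against 8249 and 6062 FPKM in WT 1 and WT 2. mt-Cytb, the cytochrome b of complex III, had 35845 and 170270 FPKM in Piezo1KO 1 and Piezo1KO 2, against 5668 and 4165 FPKM in WT 1 and WT 2. Neither passed, at 4.22 and 4.01 (limma adjusted p = 0.133 for each), with Piezo1KO 2 several-fold above Piezo1KO 1. The highest nuclear member, Atp5k, had 2.11. All 13 mitochondrial protein genes stayed above 0 when rescaled to all assigned reads (1.14 to 5.92), where Atp5k had 1.32.

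Genes that assemble or supply the complexes are given by list, and their difference from the subunits was not tested. Median log2 fold changes were 0.35 for the 4 assembly factors of complex II, 0.10 for the 6 of complex III, 0.26 for 18 tested of 22 of complex IV and 0.05 for the 3 of complex V, beside -0.01 for all tested genes. The complex II factors were about level with the complex II subunits, whose median was 0.39, and above them when rescaled to all assigned reads (-0.20 beside -0.41). With the coding length trend removed, the complex II factors lay below the subunits (-0.18 beside 0.20). None of these factors passed in limma or in limma voom, and 1, 2, 7 and 0 of them had an unadjusted limma p under 0.05 in either direction, beside 28.6% of all tested genes. Sdhaf4 and Sdhaf1, which help to mature the subunits of complex II, had 0.72 and 0.47. Uqcc2 and Uqcc3, which act on newly made cytochrome b, had 1.84 and 1.25. Uqcc2 had 89.1 and 272 FPKM in Piezo1KO 1 and Piezo1KO 2, against 44.4 and 41.5 FPKM in WT 1 and WT 2, so that Piezo1KO 2 was again the highest (limma adjusted p = 0.144). Cmc1 and Surf1, complex IV factors that act on mt-Co1, had 0.89 and 0.70, and the chaperones of the ATP synthase head, Atpaf1 and Atpaf2, had -0.39 and 0.15.

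The 13 TCA cycle enzymes, which feed electrons into the chain, had a median of 0.03, with 0 passing in limma and 2 at an unadjusted p under 0.05 in either direction. Idh3g and Idh3a, subunits of the same isocitrate dehydrogenase, had 0.48 and -0.51, with 36.9 and 30.6 FPKM in Piezo1KO and 46.8 and 49.7 FPKM in WT for Idh3a. The 12 regulators of respiratory gene transcription had a median of -0.27, with 0 passing in limma and 4 of 12 at an unadjusted p under 0.05 in either direction, near the 28.6% of all tested genes. Both Piezo1KO values lay below both WT values for 7 of the 12 (35.6% of all tested genes did so) and above them for 1, and the groups overlapped for 4. Pprc1 and Ppargc1b, coactivators of the PGC-1 family, had -1.05 and -0.72. Pprc1 had 3.79 and 2.86 FPKM in Piezo1KO 1 and Piezo1KO 2, against 7.28 and 8.57 FPKM in WT 1 and WT 2 (limma adjusted p = 0.0913). Both Piezo1KO libraries lay below both WT libraries for Pprc1. Rescaled to all assigned reads, the medians were -0.75 for the TCA cycle enzymes, -1.001 for the regulators and -0.47 for the complex IV assembly factors, beside -0.67 for all tested genes. The regulators had a median coding length of 1314 bases, close to the 1338 bases of all tested protein-coding genes, and with the coding length trend removed their median was -0.23. The members had a median of 362 bases.

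Markers of other cell types also differed between the groups. The 7 macrophage markers summed to 451 and 285 FPKM in Piezo1KO and 84.1 and 63.2 FPKM in WT, with 3 of 7 higher by limma. The 5 neutrophil markers summed to 142 and 47.8 FPKM in Piezo1KO and 0.713 and 1.25 FPKM in WT, with 2 of 4 tested higher by limma. The 5 erythroid markers summed to 5124 and 8472 FPKM in Piezo1KO and 389 and 244 FPKM in WT, and all 5 rose. In the FPKM as deposited, macrophage and neutrophil sums were highest in Piezo1KO 1, whereas the erythroid sum and 39 of the 42 respiratory genes were higher in Piezo1KO 2. The erythroid and respiratory orders depend on the scaling. In recovered reads, uncorrected for depth, Piezo1KO 2 had more than Piezo1KO 1 for Hbb-bs and Hba-a2. It had fewer for Hba-a1 (18206 against 29989), Hbb-bt and Alas2. Of the respiratory genes, 16 had more such reads in Piezo1KO 2 and 26 had fewer. As shares of all assigned reads, complexes III and IV were higher in Piezo1KO 2 than in Piezo1KO 1, and complexes II and V lower. The part of these cells, and of the mitochondrial read share, in the values of the respiratory genes was not tested.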

How the data were processed

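Gene expression was measured by RNA-seq with an mRNA library kit, per the labels' protocols. The authors deposited 1 FPKM value per gene and library, with the gene length in bases. Per the submitters' processing notes, fastp 0.19.7 and featureCounts 1.5.0-p3 were used, with mm10 (GRCm38) as the build. For the aligner, annotation release, strand setting and FPKM formula, the sources used here give nothing.

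Whole reads were recovered from FPKM times gene length (100% of values whole at a tolerance of 0.05 reads). Libraries carry the sample numbers of their titles; the deposited columns number the WT libraries 2 and 3. limma 3.58.1 (R 4.3.3), with the trend option and Benjamini-Hochberg adjustment at 0.05, compared Piezo1KO with WT on log2(FPKM + 1) over the 11085 genes whose mean FPKM reached 1, with 2 residual degrees of freedom, two-sided. The fit was tested on simulated data. Coding lengths are those of the principal transcript in GENCODE vM21, in which 47 of the 49 members had the deposited coordinates. Intervals of read shares are exact binomial (95%) and cover counting error only.

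Alternatives were a pseudocount of 0.1, no filter or a filter at 5 FPKM, other library scalings, length trends removed (the coding length trend was added after seeing the data), protein-coding genes alone, voom on recovered reads, a replicate block and each library left out. Values in every library are given for complex II, Cycs, the 3 highest and 3 lowest fold changes of complexes III, IV and V, and the paralog families; from each other list the 2 genes with the smallest p are named. The members and lists were chosen with earlier results of these data known.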

Additional observations from a re-analysis of the deposited data

How the results depend on the processing

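Of 11085 genes 122 passed, against 1 without a filter, 68 at a mean FPKM of at least 5, 7 with the gene length trend removed, 1707 with scaling to all assigned reads and 264 with the replicate block, where 0 members passed. The 1707 come from a fit whose p-values are not comparable with those of the main fit. The block uses the numbers of the titles, which do not pair the libraries (correlation of same-numbered deviations -0.03, 2 pairs). The deposited columns number the WT libraries 2 and 3, so the title and column numbers conflict. Leaving out 1 library gave 0 to 5859 genes, 0 to 37 members passing as higher and member medians of 0.40 to 1.28; 0 genes passed without WT 1 or WT 2.

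Scaling to all assigned reads gave 1 member as higher, a member median of 0.056 and complex medians of -0.41 (II), 0.41 (III), 0.27 (IV) and -0.073 (V). 19 members turned below 0: Sdhc -0.26, Sdhb -0.29, Sdhd -0.54, Sdha -0.68, Uqcrc1 -0.15, Uqcrfs1 -0.37, Uqcrc2 -0.55, Cox5a -0.011, Cox7b -0.31, Atp5j -0.073, Atp5g3 -0.13, Atp5g1 -0.11, Atp5o -0.16, Atp5f1 -0.22, Atp5c1 -0.30, Atp5b -0.48, Atp5a1 -0.68, Atp5s -0.59 and Cycs -0.11. This shift follows from the scaling itself, which moves the median of all genes to -0.67. Scaling to reads outside mitochondrial genes gave Sdha -0.10, Atp5a1 -0.092 and Atp5s -0.17. Removing the gene length trend gave Sdhd -0.27, Uqcrfs1 -0.063, Cox7b -0.052 and Atp5s -0.30, and removing the coding length trend gave a member median of 0.32, Sdhd -0.20, Cox7b -0.30 and Atp5s -0.32. Atp5s had -0.046 in voom, and -0.15 to 0.17 with 1 library left out. For the length trends and voom the cause was not tested.

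With 2 libraries a group, the spread between Piezo1KO 1 and Piezo1KO 2 was the larger one for most members (Atp5a1 differed more between the WT libraries). Among the tested members Cox7a1 had the fewest reads, 23 to 35 per library.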

Other observations

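Complex I, which passes electrons from NADH to ubiquinone and is not part of the set described above, had 38 nuclear subunits, all of them tested. Their median log2 fold change was 0.94, and both Piezo1KO values lay above both WT values for 37 of the 38, beside 33.9% of all tested genes. The medians of Piezo1KO 1 and Piezo1KO 2 alone were 0.48 and 1.34 against WT. Ndufa12, an accessory subunit named after its values were seen, was the 1 subunit of 38 that passed, beside 0.731% of all tested genes that passed as higher. It had 43.6 and 63.3 FPKM in Piezo1KO 1 and Piezo1KO 2, against 11.9 and 10.3 FPKM in WT 1 and WT 2 (log2 fold change 2.15, standard error 0.22, limma adjusted p = 0.0433). Spearman's rho between log2 fold change and coding length was -0.37 over the 38 subunits, a description over genes of the same 4 libraries.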
